A study of Sus scrofa with 8 samples.

Results

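The proneural factors NEUROD1, LHX2 and EBF1 and the neuronal structural genes GAP43, DCX, STMN2, TUBB3, NCAM1 and UCHL1 were followed in RNA-seq libraries of sow olfactory epithelium (OE). These 9 genes were chosen by their Ensembl gene name among the 22516 genes of the deposited tables, and each name matched 1 identifier. RNA-seq measured the transcripts of OE from 4 Landrace and Rongchang crossbred sows aged 8 months and in estrus, with a left and a right piece from each sow, which gave 4 control libraries and 4 libraries of the androstenone treatment group. The noses of the treated sows had been sprayed with Boarmate, a commercial product whose main component is the boar pheromone androstenone, 30 min before slaughter, and the control sows received no spray at all. The labels do not pair the libraries of a sow, and with 2 sows per group the p-values below measure the spread between libraries, not between animals.

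The OE renews its sensory neurons throughout life. Basal progenitors pass through a proneural step, driven by basic helix-loop-helix factors such as NEUROD1, and then become immature neurons that extend an axon to the olfactory bulb before they mature and express odorant receptors. LHX2, a LIM homeodomain factor, and EBF1, an early B cell factor first known from this tissue and from B lymphocytes, take part in this differentiation. GAP43 is the classic growth cone protein of immature olfactory neurons, DCX and STMN2 act on the microtubules of growing processes, TUBB3 is a neuron-enriched beta-tubulin, NCAM1 is a cell adhesion molecule, and UCHL1 is a ubiquitin hydrolase abundant in neurons. Several of these genes are also used outside neurons: EBF1 in B cells and connective tissue cells, and NCAM1 in glia, muscle and developing bone and cartilage.

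The deposited counts set how much can be said of each gene. The libraries held 81579983 to 100685797 rounded counts, except control 1 with 4177968, so that a count of 0 allowed up to 0.616 CPM in control 1 and at most 0.0451 CPM elsewhere (from 3 counts in the library). CPM here is the usual count rate of edgeR, an estimated count over the library total scaled by TMM, a factor that corrects for a shift in composition, and TPM, as deposited, are also scaled for transcript length and serve to compare genes. The 10 most counted genes of control 4 held 29.4% of its total, and those of any other library 6.57% to 9.02%. For its Control 1 the paper lists about as many clean reads as for the other libraries. The low total is thus that of the deposited counts, and its reason was not tested. Intervals and limits cover counting error only.

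Of the 9 genes, 7 were detected in all 8 libraries, and NEUROD1 and LHX2 were not. The mean level over the 8 libraries was below 1 TPM for 4 of the 9. In order of that mean, NCAM1 stood at 14.4 TPM, UCHL1 at 6.30, EBF1 at 5.74, STMN2 at 2.58, TUBB3 at 1.05, GAP43 at 0.695, DCX at 0.445, LHX2 at 0.0346 and NEUROD1 at 0.0280 TPM. Most neighbours in this order changed places between libraries. NCAM1 was above UCHL1 in 3 of 8 libraries, UCHL1 above EBF1 in 4, STMN2 above TUBB3 in 4, TUBB3 above GAP43 in 5 and GAP43 above DCX in 5. The 2 steps that held in most libraries were EBF1 above STMN2, in 7 of 8, and DCX above LHX2, in 8 of 8. NCAM1, the highest of the 9, lay at percentile 63.7 of the mean TPM of all genes tested, and GAP43 and DCX lay at percentiles 24.1 and 20.1.

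**Figure D1:**
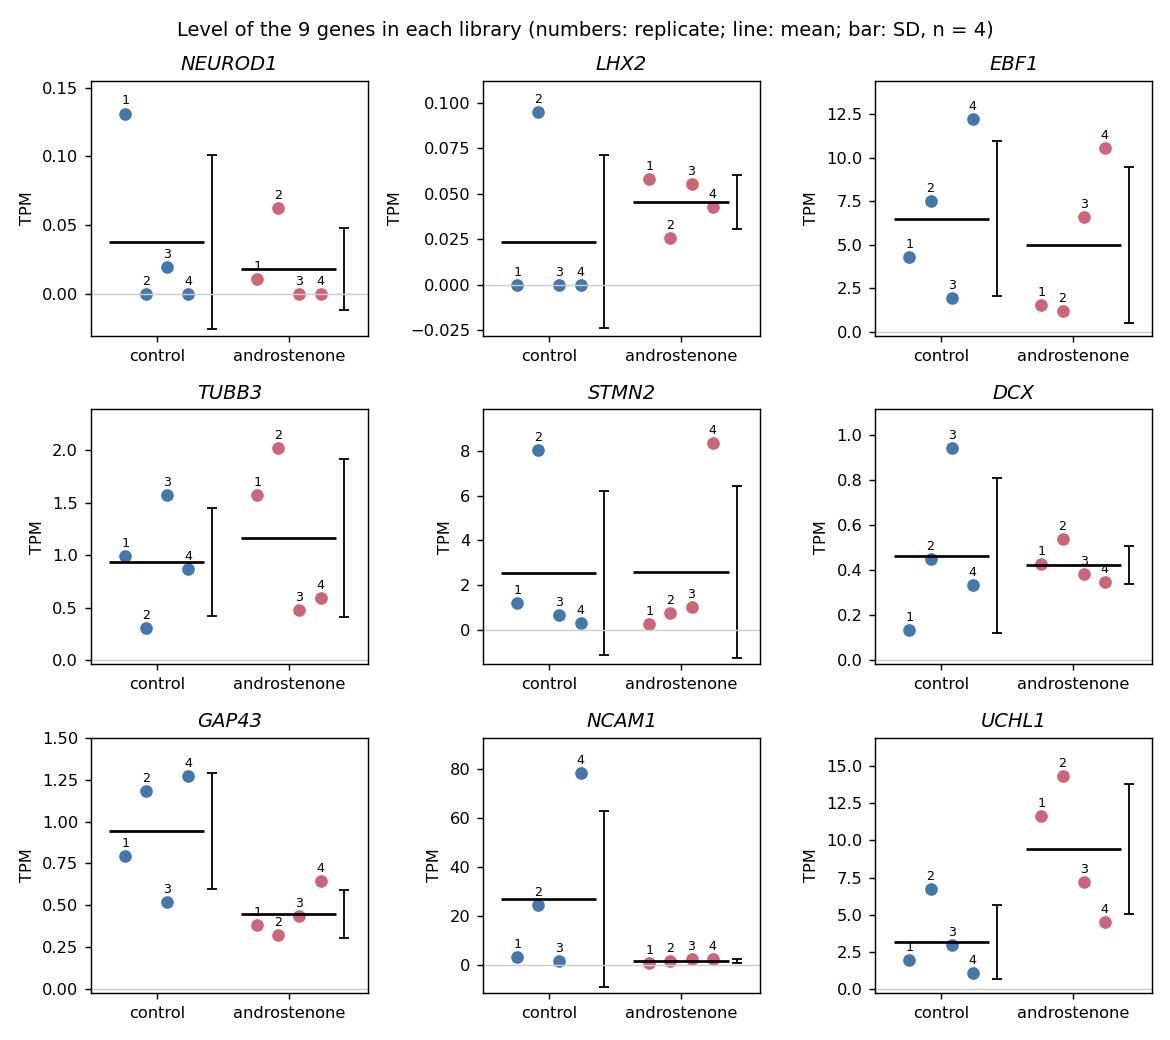
Level of each of the 9 genes in every library, in TPM on a linear axis of its own for each gene. Points are libraries with their replicate number, the line is the group mean and the bar beside it the SD (n = 4); NCAM1 is high in control 4 and control 2, STMN2 in control 2 and androstenone 4, and the groups overlap for all 9 genes.

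Among the proneural factors, NEUROD1, a helix-loop-helix factor of late progenitors and early neurons, was close to absent. It lies on chromosome 15 from 87175629 to 87179953 (Sscrofa11.1, RefSeq annotation). Its rounded counts were 1, 0, 3 and 0 in control 1 to 4 and 2, 11, 0 and 0 in androstenone 1 to 4. The gene thus had 0 counts in 4 of 8 libraries, and androstenone 2 held most of the counts. LHX2, on chromosome 1 from 264900931 to 264920888, had 0, 9, 0 and 0 counts in control 1 to 4 and 7, 3, 6 and 5 in androstenone 1 to 4. LHX2 was thus seen in every androstenone library but, among the controls, in control 2 alone, where it reached 0.0982 CPM, above all androstenone libraries. LHX2 was not called with all libraries, and it was called as higher without control 2, when the remaining controls held 0 counts and the fitted value depended on the prior count. With counts summed over the libraries of a group, the ratio of androstenone to control was 1.57 for LHX2 (95% exact interval 0.691 to 3.91) and 2.19 for NEUROD1 (0.678 to 9.23), so that neither gene had enough counts at this depth to show a difference. The mean CPM of NEUROD1 was lower in the androstenone treatment group, at 0.0334 against 0.0592, with the single count of control 1 weighing as 0.205 CPM (95% exact interval 0.0052 to 1.14).

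EBF1, on chromosome 16 from 64357999 to 64753188, was the one factor of the 3 with counts in every library. It stood at 10.7, 18.6, 4.998 and 39.3 CPM in control 1 to 4 and at 4.63, 3.38, 19.1 and 29.2 CPM in androstenone 1 to 4. Both groups ran from low to high, with control 3, androstenone 1 and androstenone 2 lowest and control 4 and androstenone 4 highest. The groups were at 18.4 ± 15.0 CPM (SD, n = 4 libraries) and 14.1 ± 12.3 CPM (SD, n = 4), a difference smaller than the spread within either group (exact permutation test, two-sided, p = 0.657).

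The structural genes of immature neurons did not all share a pattern across the libraries. GAP43, on chromosome 13 from 144364314 to 144458136, stood at 0.822, 1.11, 0.501 and 1.55 CPM in control 1 to 4 and at 0.440, 0.349, 0.478 and 0.677 CPM in androstenone 1 to 4. The androstenone libraries lay at the low end, but control 3 fell among them. In control 1, GAP43 rested on 4 counts (95% exact interval 0.224 to 2.10 CPM).

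DCX, on chromosome X from 91317671 to 91644572, was at 0.411, 1.38, 2.97 and 1.32 CPM in control 1 to 4 and at 1.59, 1.91, 1.36 and 1.184 CPM in androstenone 1 to 4. The highest and the lowest value were both controls, and the lowest, in control 1, rested on 2 counts (95% exact interval 0.0498 to 1.48 CPM). TUBB3 was at 0.822, 0.229, 1.20 and 0.842 CPM in control 1 to 4 and at 1.42, 1.74, 0.411 and 0.498 CPM in androstenone 1 to 4. Androstenone 1, androstenone 2 and control 3 were its 3 highest libraries. Beta-tubulin genes are close in sequence, so reads may be shared between them and the count of TUBB3 is uncertain.

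STMN2, on chromosome 4 from 56952968 to 57006744, was carried by 1 library in each group. It stood at 1.44, 9.46, 0.824 and 0.466 CPM in control 1 to 4 and at 0.398, 1.02, 1.39 and 10.96 CPM in androstenone 1 to 4. Androstenone 4 and control 2 were thus the only libraries above 2 CPM, 1 from each group, and the other 6 overlapped. The highest library was 27.5 times the lowest.

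NCAM1, on chromosome 9 from 40628602 to 40960605, spanned the widest range of the 7 genes detected throughout, with the highest library 95.2 times the lowest. It was at 12.1, 88.9, 6.70 and 372.8 CPM in control 1 to 4 and at 3.92, 6.16, 11.2 and 9.74 CPM in androstenone 1 to 4. Control 4 alone held 77.6% of the summed control CPM, and control 3 lay below androstenone 3 and androstenone 4. In control 4, NCAM1 made up 83.0% of the summed TPM of the 9 genes, against 5.24% in androstenone 1.

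UCHL1, on chromosome 8 from 32353766 to 32367288, leaned the other way. It was at 1.23, 4.10, 1.86 and 0.857 CPM in control 1 to 4 and at 8.70, 10.2, 5.14 and 3.10 CPM in androstenone 1 to 4. The 3 highest libraries were androstenone libraries, and control 2 lay above androstenone 4, which was the only crossing between the groups. UCHL1 was the most abundant of the 9 genes by TPM in control 3 and in androstenone 1, 2 and 3, EBF1 in control 1 and androstenone 4, and NCAM1 in control 2 and control 4.

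To ask whether these genes differed between sprayed and unsprayed sows, all 21318 genes with at least 1 count were tested with edgeR's quasi-likelihood test, and all 9 genes were among them. With the cutoff of the study (p below 0.05 without adjustment, and a log2 fold change of 1 or more in either direction), 3 of the 9 genes were called, NCAM1 and GAP43 as lower and UCHL1 as higher in the androstenone treatment group. In the same test 6.42% of all genes were called, 4.38% as lower and 2.04% as higher. When p was adjusted by Benjamini-Hochberg across the 21318 genes, 0 of the 9 passed with this test, although 3 had an unadjusted p below 0.05, and 0 passed with edgeR's exact test and 0 with limma voom. NCAM1 passed after adjustment with edgeR's likelihood ratio test (adjusted p = 0.0493) and with DESeq2 (adjusted p = 0.00806). Of all genes tested, 670 passed with DESeq2, 200 with the likelihood ratio test and 157 with the exact test. With the quasi-likelihood test and with limma voom 0 did. The groups did not overlap for 0 of the 9 genes, against 6.53% of all genes tested (3.89% higher and 2.64% lower in the androstenone treatment group).

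NCAM1 averaged 120.1 ± 173 CPM without and 7.75 ± 3.31 CPM with the spray (SD over 4 libraries each). This is a fitted log2 fold change of -3.96 (standard error 1.21, unadjusted p = 0.0103, edgeR, adjusted p = 0.403). Without control 4, the log2 fold change was -2.21 and the unadjusted p 0.0349 in the same edgeR test, and the control mean was 35.9 CPM. The call was kept with each of the 8 libraries left out in turn, and each of those fits still held control 4 or control 2. It was lost with limma voom (unadjusted p = 0.0694) and with limma on log2(TPM + 0.1) (unadjusted p = 0.0525) and on log2(TPM + 1) (unadjusted p = 0.0649). It was also lost in edgeR with the replicate number as a block (unadjusted p = 0.0769). On the CPM values themselves, the exact permutation test (two-sided) gave p = 0.114, where 0.0286 is the smallest p that 4 against 4 libraries allow.

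GAP43 averaged 0.996 ± 0.445 CPM without and 0.486 ± 0.138 CPM with the spray (SD over 4 libraries each). The log2 fold change of -1.05 (standard error 0.42, unadjusted p = 0.0350, edgeR, adjusted p = 0.421) lay at the edge of the cutoff. The call was lost in 5 of the 8 fits that left out 1 library, namely control 2, control 4 or androstenone 1, 2 or 3, and without control 4 the unadjusted edgeR p was 0.115. The exact permutation test (two-sided) gave p = 0.0571.

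UCHL1 averaged 2.01 ± 1.45 CPM without and 6.78 ± 3.23 CPM with the spray (SD over 4 libraries each). The fitted log2 change for UCHL1 was 1.71 (standard error 0.57, unadjusted p = 0.0154, edgeR, adjusted p = 0.416), and the exact permutation test (two-sided) gave p = 0.0571. The call was kept with each library left out in turn, with a log2 fold change of 1.43 to 2.35, and with all of edgeR's tests, DESeq2 and limma voom. It was lost when control 1, the library with few deposited counts, and control 4 were left out together. This setting was chosen after seeing the data. Its log2 fold change was 1.15, with unadjusted p = 0.104 from edgeR's model across all genes, and no permutation test.

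For the other 6 genes the fitted log2 fold changes lay between -0.39 for EBF1 and 0.83 for NEUROD1, all with a standard error larger than the value itself. DCX averaged 1.52 ± 1.07 CPM without and 1.51 ± 0.313 CPM with the spray (SD, n = 4 each), with a log2 fold change of -0.086 (standard error 0.47, edgeR). STMN2 was at 3.05 ± 4.29 and 3.44 ± 5.03 CPM (SD, n = 4 each), and its log2 fold change of 0.14 (standard error 1.22) became -1.74 without androstenone 4 and 2.06 without control 2. TUBB3 was at 0.773 ± 0.402 and 1.02 ± 0.666 CPM (SD, n = 4 each), with a log2 fold change of 0.41 (standard error 0.64). For NEUROD1 the fitted value has the opposite sign to the difference of the mean CPM. That difference turned to 0.0230 CPM higher with the spray when control 1, with its few deposited counts, was left out.

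**Figure D2:**
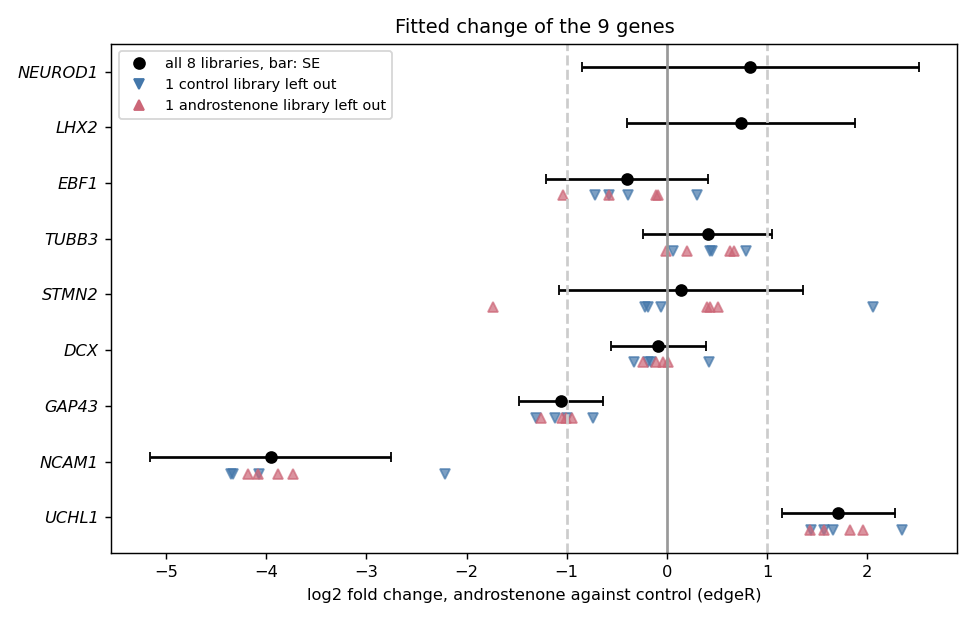
Fitted log2 fold change of the 9 genes, androstenone against control, from edgeR's quasi-likelihood test. Black points show all 8 libraries with the standard error, triangles the fits with 1 library left out (not drawn for NEUROD1 and LHX2, whose counts are too few), and dashed lines mark an absolute value of 1; NCAM1 moves from -3.96 to -2.21 without control 4, and STMN2 changes sign with the library left out.

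Around these genes, 64 genes of olfactory neurogenesis were listed, 33 progenitor and proneural factors and 31 genes of immature neurons, with the 9 genes among them. Of the 64, 60 matched an identifier, and the others were not analysed here. The 2 lists were chosen with results of these data known. Of the 59 that were tested, 6 were called as lower and 1 as higher, which is 11.9% against 6.42% of all genes, and leaving out the 9 genes it was 4 of 50, or 8.0%. The median log2 fold change was 0.017 over the 59 genes and -0.021 over all genes tested, and 0 of the 59 passed after adjustment in edgeR's quasi-likelihood test (smallest adjusted p = 0.393). With DESeq2, 3 of the 59 passed after adjustment, with edgeR's likelihood ratio test 2, with its exact test 1 and with limma voom 0. Over all genes tested these numbers were 670, 200, 157 and 0, and 0 with the quasi-likelihood test.

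Among the progenitor and proneural factors, DLX5 was the only gene called, at 2.88, 25.1, 1.40 and 59.8 CPM in control 1 to 4 and at 0.644 to 2.50 CPM in the androstenone libraries (named after its values were seen). DLX5 is a homeobox factor of the olfactory placode and also of osteoblasts, and its 2 high libraries, control 4 and control 2, are those of NCAM1. NEUROG1, the proneural factor upstream of NEUROD1, was at 0 to 0.238 TPM, and NEUROD4 and NHLH2 were at or near 0 in every library (at most 0.00336 TPM and 0 TPM). EBF3 and EBF4, which are related to EBF1, were at 0.340 to 5.50 TPM and 1.76 to 8.88 TPM. The factors with the highest level were LDB1, a cofactor of LIM homeodomain proteins that most cells express, and the Notch target HES1. LDB1 was at 92.7 ± 17.7 TPM in the control group and 75.3 ± 24.3 TPM in the androstenone treatment group, and HES1 at 65.1 ± 20.8 and 74.2 ± 14.4 TPM (SD, n = 4 each). Neither was called (unadjusted p = 0.458 and 0.190 from edgeR's model across all genes, not a permutation test).

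Among the genes of immature neurons, the collapsin response mediator DPYSL2, which acts in axon guidance, was at 86.3, 90.0, 79.6 and 160.7 CPM in control 1 to 4 and at 30.0, 21.3, 53.1 and 55.7 CPM in androstenone 1 to 4. All androstenone libraries lay below all control libraries. DPYSL2 had a log2 fold change of -1.38 (standard error 0.37, unadjusted p = 0.00496, edgeR, adjusted p = 0.393). DPYSL3, of the same family, and CALB2, a calcium-binding protein, were also called as lower, with log2 fold changes of -2.13 and -2.17, and their groups overlapped (both named after their values were seen). Both rested on control 4. CALB2 had 100 of its 140 control counts there, and without it the control mean was 0.144 CPM against 0.118 CPM with the spray, and the edgeR log2 fold change -0.62. DPYSL3 was at 282.7 CPM in control 4, 115.6 CPM in control 2 and 13.5 to 38.2 CPM in the other 6 libraries, and without control 4 its log2 fold change was -1.08. Neither call was kept without control 4, and each was lost in 5 of the 8 fits with 1 library left out, for DPYSL3 also without control 2 or androstenone 1, 2 or 3 and for CALB2 without any 1 of the androstenone libraries. Of the 59 genes tested, 2 had groups that did not overlap, and the share of 3.39% stands beside 6.53% of all genes. They were DPYSL2 and NEUROD2, a helix-loop-helix factor with a log2 fold change of -0.84 that is short of the cutoff. The gap of NEUROD2 was narrow, from 0.524 CPM in control 2 (48 counts) to 0.440 CPM in androstenone 1 (42 counts). In control 1 NEUROD2 rested on 4 counts. The actin-binding thymosin TMSB10 and the alpha-tubulin TUBA1A were the most abundant of this list. TMSB10 was at 3050.02 ± 1071.73 and 2954 ± 1121 TPM (SD, n = 4 each) and TUBA1A at 385 ± 291 and 642 ± 400 TPM, and neither was called. GNG8, a G protein subunit of immature olfactory neurons, was at 2.27 to 11.0 TPM.

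**Figure D3:**
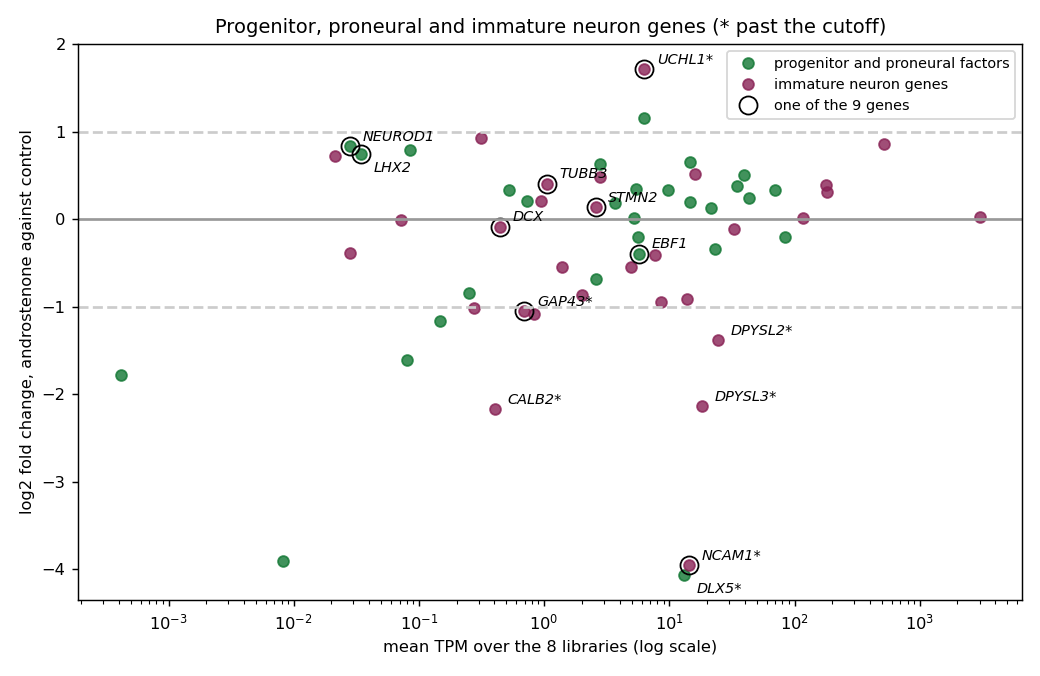
Mean TPM over the 8 libraries (log scale) against the fitted log2 fold change for the 59 tested genes of the progenitor, proneural and immature neuron lists. Circled points are the 9 genes, asterisks mark the 7 genes past the unadjusted cutoff, and points far left rest on few counts, where the fitted value depends on the prior count.

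The label of the tissue was compared with markers of mature olfactory neurons. OMP and CNGB1 could not be matched and are not analysed here. Of the 13 other genes of that list, RTP2 had 0 counts in all libraries, and RTP1, a chaperone of odorant receptors, was at no more than 0.0380 TPM and GFY, a Golgi protein of these neurons, at no more than 0.0707 TPM. CNGA2, the main subunit of the olfactory transduction channel, was at 0.279 to 5.01 TPM, and GNG13 at 0.0805 to 0.493 TPM. The summed level of the 13 genes was 94.5 to 236 TPM in the control group and 105 to 197 TPM in the androstenone treatment group. STOML3, a stomatin-like protein, was at 34.9 to 190 TPM, the calcium-activated chloride channel ANO2 at 3.18 to 50.4 TPM and the adenylyl cyclase ADCY3 at 6.25 to 15.0 TPM, and ANO2 was above STOML3 in control 2 and androstenone 4. Markers of respiratory ciliated cells were high, with a summed level of 8 genes of 212 to 1212 TPM in the control group and 287 to 1181 TPM in the androstenone treatment group. Of sustentacular cells, 2 of 4 genes matched and summed to 127 to 524 TPM and 111 to 352 TPM, in the same order of groups. The sum was almost all SEC14L3, at a mean of 248 TPM over the libraries, against 0.705 TPM for ERMN. Of basal cells 2 of 4 genes summed to 20.3 to 172 TPM and 12.1 to 582 TPM in the same order. In a bulk sample, fewer cells of a type and less RNA per cell cannot be told apart.

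Marker lists of other cell types moved with some of the 9 genes. For NCAM1, the summed level of 10 genes of stroma and pericytes was 3704, 14366, 2110 and 86227 TPM in control 1 to 4 and 632, 2351, 3683 and 3437 TPM in androstenone 1 to 4. The 3 collagens of the list, COL1A1, COL1A2 and COL3A1, made up 46.2% to 90.0% of the sum. The order of the libraries by this sum and by NCAM1 differed in 1 exchange of neighbours, androstenone 2 and control 3. The summed level of 8 bone genes was 27353 TPM in control 4, against 478 to 1072 TPM in the other controls and 210 to 1004 TPM in the androstenone libraries. All 8 bone genes were called as lower in the androstenone treatment group, with unadjusted p from 0.00786 to 0.0483 and adjusted p from 0.393 to 0.440 in edgeR's quasi-likelihood test, and SP7, an osteoblast factor, was at 48.4 TPM in control 2 and 132 TPM in control 4. Over all genes tested, 4.38% were called as lower. Without control 4 the direction of NCAM1 was the same, as given above. The remaining controls, control 1 to 3, were at 12.1, 88.9 and 6.70 CPM, and control 2 was also second highest by the stroma sum. The part of bone and stroma in the difference of NCAM1 was not tested.

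For STMN2, the 2 high libraries were also the 2 with the most B cell transcripts. The summed level of 7 B cell genes was 503, 800, 241 and 109 TPM in control 1 to 4 and 175, 142, 235 and 745 TPM in androstenone 1 to 4. None of the 7 was at 0 in any library, and MS4A1, which encodes CD20, ranged from 12.05 to 131 TPM. For EBF1, which B cells need, the highest library, control 4, had the lowest B cell sum. The second highest, androstenone 4, had a sum of 745 TPM. PDGFRA and PDGFRB, receptors of fibroblasts and pericytes, were at 67.3 and 88.2 TPM in control 4. They were at no more than 2.63 and 7.21 TPM in control 3, androstenone 1 and androstenone 2, the 3 libraries with the least EBF1. The 3 collagens of the stroma list summed to 1752, 424 and 2114 TPM in those libraries, against 1701 and 1766 TPM in androstenone 3 and androstenone 4. The other 7 stroma genes summed to 359, 207 and 236 TPM against 1983 and 1671 TPM. The part of these cells in the levels of STMN2 and EBF1 was not tested.

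TUBB3 and the sum of the ciliated cell genes were highest in the same 3 libraries, control 3, androstenone 1 and androstenone 2, where the sum was 1212, 982 and 1181 TPM against 212 to 572 TPM in the other 5. The sum of the mature olfactory neuron genes was also highest there, at 236, 192 and 197 TPM against 94.5 to 145 TPM elsewhere. This sum rested mainly on STOML3, at a mean of 94.6 TPM over the libraries, followed by ANO2 at 26.7 TPM. It therefore says little of the other genes of that list. In the same 3 libraries the sum of the 2 sustentacular genes was highest, at 524, 316 and 352 TPM against 111 to 283 TPM. That sum was almost all SEC14L3, at a mean of 248 TPM over the libraries, against 0.705 TPM for ERMN. DCX was highest in control 3 and androstenone 2. Markers of glia and Schwann cells, which can express GAP43 and NCAM1, summed to 62.7 to 139 TPM in the control group and 71.7 to 92.3 TPM in the androstenone treatment group, with S100B and NCMAP not matched. SOX10, a factor on this list, was at 17.4 TPM in control 2 and at 0.0687 to 3.61 TPM in the other libraries. The 14 genes of other neurons and neuroendocrine cells summed to 9.24 to 15.7 TPM in the control group and 7.02 to 9.26 TPM in the androstenone treatment group. Of these 14 genes, 0 were called as higher and 3 as lower, the granins CHGB and SCG2 and the related SCG3. Over all genes tested, 2.04% were called as higher and 4.38% as lower. The median log2 fold change of the 14 genes was -0.57 against -0.021 over all genes. In CPM, SCG2 averaged 0.430 ± 0.128 without and 0.0924 ± 0.0490 with the spray, CHGB 1.58 ± 0.723 and 0.628 ± 0.191, and SCG3 2.00 ± 0.462 and 0.913 ± 0.180 (SD, n = 4 each). All 4 androstenone libraries lay below all controls for each of the 3 genes (chosen after their values were seen), with edgeR log2 fold changes of -2.11 for SCG2, -1.33 for CHGB and -1.12 for SCG3 and adjusted p of 0.393 to 0.403. Over all genes tested, 2.64% had every androstenone library below every control. The call of CHGB was lost without control 4 (-0.93) and that of SCG3 without androstenone 4 (-0.99), both just short of the fold needed. NEFL, a neurofilament of mature neurons, was at no more than 0.0690 TPM. What these cells contribute to the 9 genes was not tested.

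**Figure D4:**
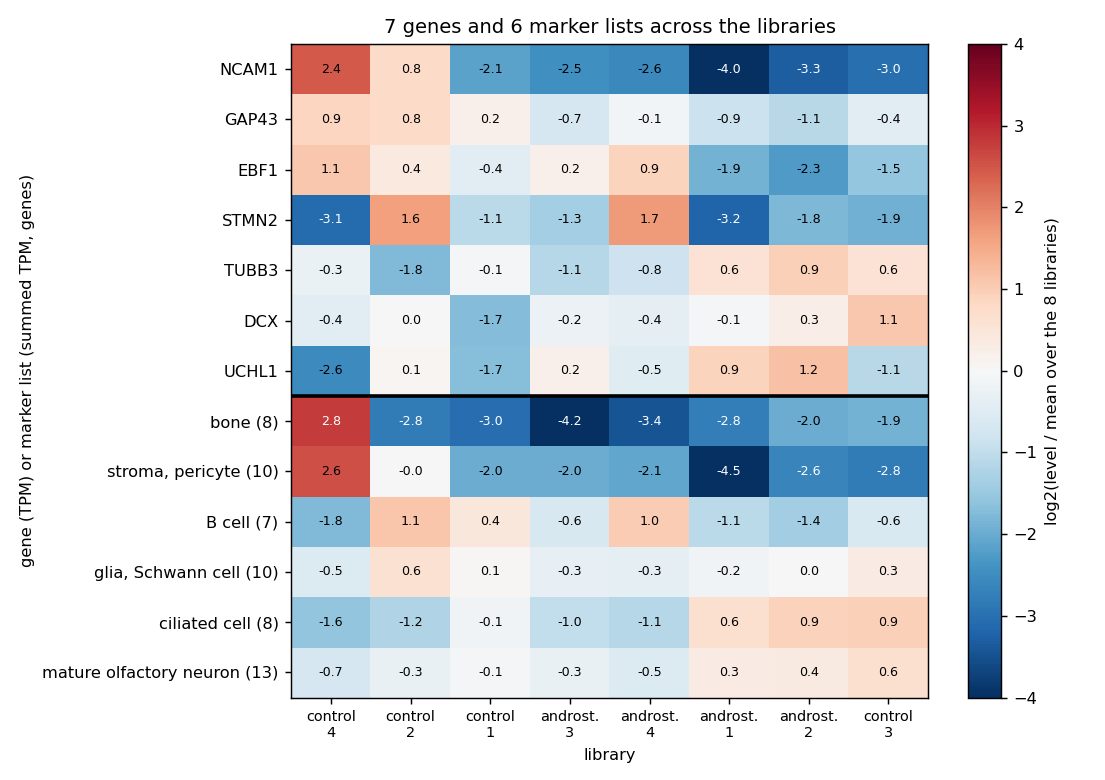
The 7 genes detected in every library (above the line, TPM) and 6 marker lists (below the line, summed TPM, number of genes in brackets), each as log2 of its level over its own mean across the 8 libraries. NCAM1 and the stroma list are both highest in control 4 and lowest in androstenone 1. STMN2 and the B cell list are both highest in control 2 and androstenone 4. TUBB3, the ciliated cell list and the mature olfactory neuron list are above their mean in androstenone 1, androstenone 2 and control 3 only. The mature olfactory neuron list rests mainly on STOML3.

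Between the 7 genes, the levels across the 7 libraries other than control 1, where 5 of them had under 10 counts, were compared on log2 CPM as a description. Of the 21 pairs, 4 had a Pearson's r above 0.5 and 7 had one below -0.5. GAP43 and NCAM1 were most alike (r = 0.95, Spearman's rho = 0.86), and GAP43 and UCHL1 least (r = -0.75, rho = -0.86). EBF1 went with GAP43 (r = 0.78) and NCAM1 (r = 0.72) and against DCX (r = -0.74) and TUBB3 (r = -0.74). These libraries share sows, and the values describe the libraries only.

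The genes whose pattern was most like that of the 2 genes with at least 10 counts in every library were sought among 18347 genes over all 8 libraries. For NCAM1 they were HAPLN1, a link protein of the cartilage matrix (Pearson's r = 0.996, Spearman's rho = 1), SGCD (r = 0.994) and NDNF (r = 0.993), and without control 4 and control 2, its 2 farthest libraries, r was 0.934, 0.920 and 0.921. HAPLN1 was at 103 TPM in control 4, 32.3 TPM in control 2 and 0.788 to 2.93 TPM in the other 6 libraries. For EBF1 they were CALHM2 (r = 0.988), ZEB1, a zinc finger factor of mesenchymal cells (r = 0.988), and TAF2 (r = 0.987). Over the 7 libraries other than control 1, a choice made after seeing the data, the nearest gene was KLF8 for GAP43 (r = 0.992), GNL2 for DCX (r = 0.996), EXO1 for STMN2 (r = 0.991), SMDT1 for TUBB3 (r = 0.990) and IL17D for UCHL1 (r = 0.989). Each is the nearest of 18347 genes, and the values are a description.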

How the data were processed

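RNA-seq libraries of the olfactory epithelium of 4 sows were analysed, 4 control and 4 androstenone libraries. Per the labels, reads were cleaned by the authors (fastp 0.23.1), and kallisto 0.48.0 assigned them to transcripts of Sscrofa11.1. They deposited estimated counts per gene, which are not normalized, and TPM values, which correct for the length of the transcript and for depth. How transcripts were combined into genes: not given in the sources used here.

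Gene names came from a table that matched 15527 of the 22516 identifiers, and coordinates from RefSeq, matched by symbol. TUBB3 had no RefSeq entry in the table used. Counts were rounded, genes with at least 1 count were kept, and groups were compared with edgeR 4.0.16 (TMM and the quasi-likelihood test, with treatment as its single factor) in R 4.3.3. A call needed p below 0.05 and a log2 fold change of 1 or more in either direction, the study's cutoff with edgeR. The quasi-likelihood test reports no standard error. The one given is the absolute log2 fold change over the square root of the test's F statistic. For CPM of single genes, exact permutation tests ran over all 70 assignments (Python 3.11.15). Intervals are 95% exact binomial intervals. DESeq2 1.42.0 and limma 3.58.1 served as alternatives. The edgeR, DESeq2 and limma fits were tested on simulated counts.

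The 9 genes, the gene lists and the tests were chosen with earlier results of these data known. Beside the 9 genes, the text names, of each neurogenesis list, up to 3 called genes of at least 1 TPM whose groups did not overlap, by the size of change, the 2 of highest TPM, and the 3 genes most like a member with at least 10 counts in every library. Others are named for comparison. No pair of libraries agreed within sampling noise (smallest chi-square per degree of freedom 36.5). No sequences are shown.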

Additional observations from a re-analysis of the deposited data

Results flagged for a closer look

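In a group of 4 libraries, the highest or lowest value was set against Dixon's 95% limit for the gap to its neighbour over the range, for the 9 genes and the 5 others named by rule, 28 groups in all. A value passed in 5 of the 28. Dixon's limit gives about 1 in 20 for normally distributed values, which CPM resting on few counts are not. The number passing was therefore not weighed against that rate. STMN2 stood apart at 9.46 CPM in control 2 (next 1.44 CPM) and at 10.96 CPM in androstenone 4 (next 1.39 CPM). NEUROD1 stood apart at 0.205 CPM in control 1, which is 1 count, and LHX2 at 0.0982 CPM in control 2, with 0 counts in the other 3 controls. DPYSL2 was at 160.7 CPM in control 4 (next 90.0 CPM), the library with the most bone transcripts. What sets these libraries apart was not tested.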

How the results depend on the processing

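At the study's cutoff, 3 of the 9 genes, 7 of the 59 neurogenesis genes and 1368 of all genes were called. With limma voom the first 2 counts were 1 and 4. With limma on log2(TPM + 0.1) the 3 counts were 1, 3 and 727, and on log2(TPM + 1) they were 1, 3 and 321. With p below 0.01 they were 0, 2 and 368, and without control 1 and control 4 together, a setting added after seeing the data, 1, 3 and 881. With 1 library left out they ranged from 2 to 3, from 4 to 11 (4 without androstenone 1 or 3, 11 without control 3) and from 867 to 2414. The other tools and filters stayed within 1.5 times of each count. With the replicate number as a block the counts were 1, 4 and 583, UCHL1 being the one kept. Same-numbered libraries of the 2 groups did not deviate together (r from -0.599 to 0.173), so the numbers were not taken to pair the libraries.

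The direction of 5 genes changed, none of which was called. The log2 fold change of NEUROD1 was -0.30 with voom, -0.15 and -0.026 on log2(TPM + 0.1) and log2(TPM + 1), -0.32 with the block, and -1.25 to 1.78 with 1 library left out. For STMN2 it was -0.0097, -0.041, -0.015 and -0.16 in the same order, -0.61 without control 1 and control 4, and -1.74 to 2.06 with 1 library left out. For DCX it was 0.082 on log2(TPM + 0.1), 0.13 with the block and -0.33 to 0.42 with 1 library left out. EBF1 gave 0.21 without control 1 and control 4 and -1.03 to 0.30 with 1 left out, and TUBB3 -0.0063 to 0.79. In CPM, androstenone minus control, DCX turned to 0.0292 with library size only. With 1 library left out, the difference ranged from -0.381 to 0.473 for DCX, from -0.0522 to 0.0230 for NEUROD1, from -9.37 to 2.62 for EBF1 and from -2.11 to 2.53 for STMN2. The cause was not tested. NEUROD1 and LHX2 did not pass filterByExpr, and a permutation test of 3 against 4 libraries cannot go below 0.0571.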
